A study of Mus musculus with 20 samples.

Results

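The nuclear genome encodes most subunits of the mitochondrial respiratory chain and of ATP synthase, and their mRNAs were followed in total RNA and in polysome RNA of mouse liver. Members were chosen by symbol: genes beginning with Nduf, Uqcr, Atp5, or Cox4 to Cox8, together with Sdha, Sdhb, Sdhc, Sdhd and Cyc1. Of the 108 rows of the count table with such a symbol, 11 were pseudogenes and 97 were protein-coding. A member also had to exceed 0.5 CPM (counts scaled to a common library size) in at least 4 of the 20 libraries, which 90 of the 97 protein-coding genes did, out of 53028 genes in the table. The 90 members comprised 46 genes of complex I (NADH dehydrogenase), 4 of complex II (succinate dehydrogenase), 9 of complex III (cytochrome bc1), 14 of complex IV (cytochrome c oxidase) and 17 of complex V (ATP synthase). The symbols also bring in genes that are not subunits of the finished complexes: 8 assembly factors of complex I (the Ndufaf genes), Cox7a2l, which takes part in joining complexes into supercomplexes, and Atp5s, a gene related to ATP synthase by its symbol.

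The samples came from male C57BL/6J mice fed standard chow, which received a locked nucleic acid (LNA), a chemically stabilized antisense oligonucleotide, in 3 intraperitoneal injections given on alternate days at a dose of 3 mg/kg, and were killed 2 days after the last. Of the 10 mice, 5 received an LNA against GFP as the control (labelled GFP; mice 1, 2, 3, 8 and 9) and 5 received an LNA labelled Snora37kd (mice 4, 6, 10, 11 and 12). The study's design names SNORA73 as the target, a small nucleolar RNA that takes part in processing of precursor rRNA, and these libraries are called the SNORA73 LNA group here. The design gives an age of 8 weeks at LNA injection. The methods for liver ribosomes describe mice aged 10 weeks after the LNA course, given cycloheximide, which halts ribosomes on mRNA, shortly before they were killed. Each mouse gave 1 library of total RNA (transcriptome) and 1 of RNA from polysome fractions (translatome), the mRNAs carrying several ribosomes. Polysome RNA was purified by another route than total RNA, with precipitation, heparinase and a further cleanup, so an effect of the extraction and of the polysome fraction cannot be told apart. In whole liver, fewer cells of a type and less RNA per cell cannot be told apart either.

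Complexes I and II pass electrons from NADH and succinate to ubiquinone, complex III passes them on to cytochrome c, and complex IV reduces oxygen. Complexes I, III and IV pump protons out of the matrix, and complex V uses the returning protons to make ATP. A few hydrophobic core subunits are made inside the organelle from mitochondrial DNA, and the many others are translated on cytosolic ribosomes and imported, so the chain draws on both genomes. Complex II is entirely nuclear in origin and also works as an enzyme of the citric acid cycle.

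Nuclear respiratory genes are known for GC-rich promoters with sites for NRF1, and the windows of 300 bases around the gene starts (250 before and 50 after, RefSeq, GRCm38.p6) were searched for them. Windows were found for 74 of the 90 members, 79 windows in all. The 8 letters of the NRF1 core, CGCATGCG, read the same on both strands and were present in 11 windows (13.9%), against 1.87% of 32851 windows of all genes and 3.56% of 13006 windows of the genes tested below. CCGGAAG, the GABPA core, was present on either strand in 22.8% of member windows and 16.7% of windows of tested genes, and ATGGCGGC, the YY1 core, in 10.1% and 4.55%. TATAAA was present in 7.59% and 8.18%, and CCAAT in 41.8% and 37.9%. The following 6 windows of 40 bases have the NRF1 core, in capitals, wholly before the start with its flanks. They are a selection and need not be every such window among the 11. They are shown because this is the sequence feature in which members stood furthest from other genes. A match is a description of the letters and not evidence of binding.
Atp5g2, a proton-carrying subunit c gene, chr15:102671065-102671104, minus strand: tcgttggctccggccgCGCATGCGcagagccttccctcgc
Atp5j, a stalk subunit gene, chr16:84835100-84835139, minus strand: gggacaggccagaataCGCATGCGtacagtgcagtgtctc
Atp5k, a membrane-sector subunit gene, chr5:108434425-108434464, minus strand: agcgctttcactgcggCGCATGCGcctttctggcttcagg
Cox6a1, a complex IV subunit gene, chr5:115349096-115349135, minus strand: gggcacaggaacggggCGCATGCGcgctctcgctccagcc
Ndufa11, a complex I accessory gene, chr17:56717687-56717726, plus strand: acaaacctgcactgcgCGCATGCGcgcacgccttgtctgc
Ndufaf4, a complex I assembly factor gene, chr4:24897955-24897994, plus strand: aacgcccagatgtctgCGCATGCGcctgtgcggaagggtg
The core lies from 41 bases (Atp5g2) to 161 bases (Cox6a1) before the annotated start, on the strand of the gene. These 6 genes did not behave alike in the polysome comparison below, where the log2 fold change in the GFP LNA group was 1.52 for Atp5k and -0.46 for Ndufaf4.

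Libraries held 20005389 to 42023390 counts in total RNA and 14852951 to 33824659 in polysome RNA. The targeted snoRNAs could not be checked in these polyadenylated RNA libraries, since Snora73a and Snora73b had at most 4 counts in any library and their host gene Snhg3 had 37 to 201. Hepatocyte markers summed to 38870 to 84320 CPM in the libraries, and no marker of striated muscle or adipocytes passed the filter, with summed levels of at most 0.24 and 0.361 CPM. Members together took 1.33 to 1.57% of all counts in total RNA of the GFP LNA group and 0.981 to 1.61% in the SNORA73 LNA group. They took 3.00 to 3.36% of polysome RNA in the GFP LNA group and 2.09 to 2.99% in the SNORA73 LNA group. Mouse 10 of the SNORA73 LNA group had the lowest share in both RNAs. Among the 10 total RNA libraries, that of mouse 10 held the lowest value for 67 of the 90 members, against 19.2% of all genes tested. In polysome RNA it did so for 54 members, against 13.4% of all genes. In its own analysis the study left 1 mouse out of each group without naming it. Results are therefore also given without mice 9 and 10, which an earlier analysis of these data took as the excluded pair.

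Members were abundant in liver. On a CPM scale normalized by TMM (trimmed mean of M values, a scaling that sets most genes equal between libraries) over the 20 libraries, 56 members had a mean over 100 CPM in total RNA of the GFP LNA group and 5 had less than 10. Transcript lengths were not used, so levels are not compared between genes. The isoforms of complex IV that heart, muscle, lung or testis use were low or below the filter: Cox7b2 and Cox8c had 0 counts in every library, and Cox4i2, Cox6a2, Cox6b2 and Cox8b never exceeded 19 counts. Those that passed were Cox7a1, the heart and muscle form of Cox7a2, with 0.557 to 2.53 CPM in total RNA, and Ndufa4l2, a relative of Ndufa4. The remaining protein-coding gene below the filter was a second identifier of Atp5o, with at most 4 counts. Ndufb4 and Ndufb4c are near-identical copies, and the split of reads between them is uncertain.

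Respiratory chain mRNAs were enriched in polysomes relative to total RNA in both groups of mice. The summed CPM of the members was 14224 ± 672 (SD, n = 5) in total RNA and 29321 ± 2250 in polysome RNA of the GFP LNA group, a ratio of 2.06. In the SNORA73 LNA group the sums were 14394 ± 1963 and 28549 ± 3877 (n = 5), a ratio of 1.98. In every mouse the polysome library held more, with ratios from 1.93 (mouse 2) to 2.33 (mouse 9) in the GFP LNA group and from 1.66 (mouse 6) to 2.16 (mouse 12) in the SNORA73 LNA group. The labels pair the libraries by mouse, and over all genes the total library of mouse 6 resembled the polysome library of mouse 12 more than its own. All values compare shares within libraries, so a rise means that a gene took a larger part of polysome RNA than of total RNA.

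**Figure D1:**
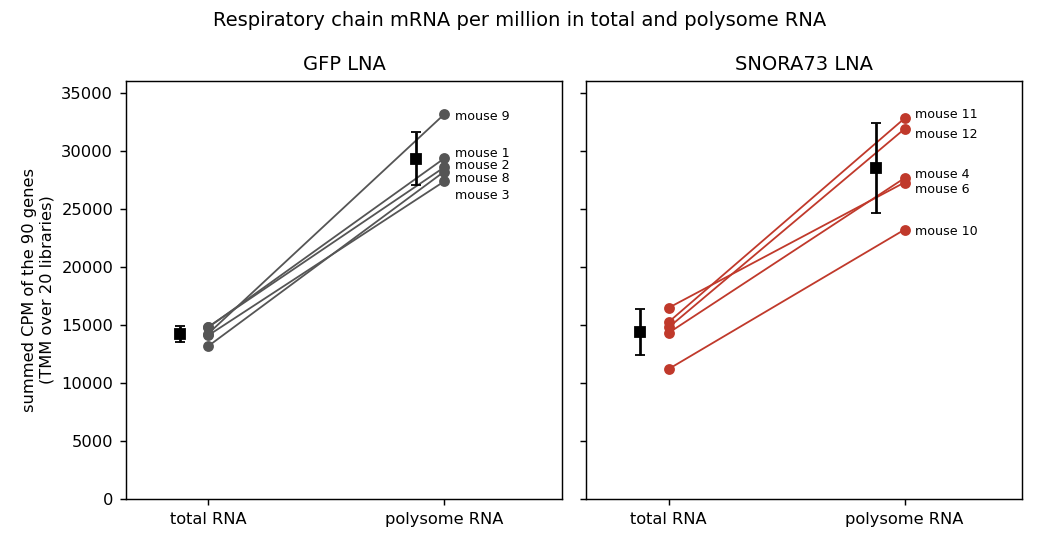
Summed CPM of the 90 members (y axis, TMM scale over 20 libraries, starting at 0) in total and polysome RNA, with 1 line per mouse; black squares are means ± SD of 5 mice. All 10 lines rise, and mouse 10 of the SNORA73 LNA group lies lowest at both ends.

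Per gene, the polysome and total libraries were compared with edgeR's quasi-likelihood test over all 20 libraries, and a gene was called at a false discovery rate (FDR) under 0.05. In the GFP LNA group 79 of the 90 members were higher in polysome RNA, where 21.8% of 13795 genes were called higher, and 4 were lower, where 21.0% of genes were. In the SNORA73 LNA group 73 members were higher (background 19.7%) and 3 were lower (background 18.2%). Without GFP LNA mouse 8, 2 members were called lower in the GFP LNA group. The median log2 fold change of the members was 1.04 in the GFP LNA group and 1.01 in the SNORA73 LNA group, beside 0.03 and 0.02 over all genes tested. Of the members, 73 were called higher in both groups, 3 were called lower in both and 7 were called in neither. Estimates were above 0 for 84 and 83 members, against 51.6% and 51.3% of all genes. The polysome library exceeded the total library in all 5 GFP LNA mice for 83 members (background 31.4%), in all 5 SNORA73 LNA mice for 69 (background 23.9%), and in all 10 mice for 69. Every polysome library was above every total library for 78 members in the GFP LNA group (background 17.9%) and 63 in the SNORA73 LNA group (background 11.4%), and below for 3 (background 17.2%) and 1 (background 11.3%). A rise of at least 1 on the log2 scale was called for 46 members in each group, where 4.18% and 4.29% of all genes passed.

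By the role of the subunit, the estimates had different medians. All 31 accessory subunits of complex I, which surround its catalytic core, were higher in both groups, with medians of 1.27 and 1.15 on the log2 scale. All 11 accessory subunits of complex IV were higher as well, with medians of 1.30 and 1.22. The 7 accessory subunits of complex III had medians of 1.08 and 1.08, in a grouping by role that counted Uqcrc1 and Uqcrc2 among them. Of the 22 genes listed as core catalytic subunits, a list that also held the complex III core proteins Uqcrc1 and Uqcrc2, 16 were higher in the GFP LNA group. Their median was 0.56. In the SNORA73 LNA group 11 were higher, with a median of 0.40. Complex II stood lowest, with medians of 0.10 and -0.11 over its 4 genes. In each of the 10 mice the polysome to total ratio of the summed complex II genes (0.862 to 1.18) was below that of the summed complex IV genes (1.97 to 2.68). Sets of genes from a list share their libraries, and no test was made between roles.

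**Figure D2:**
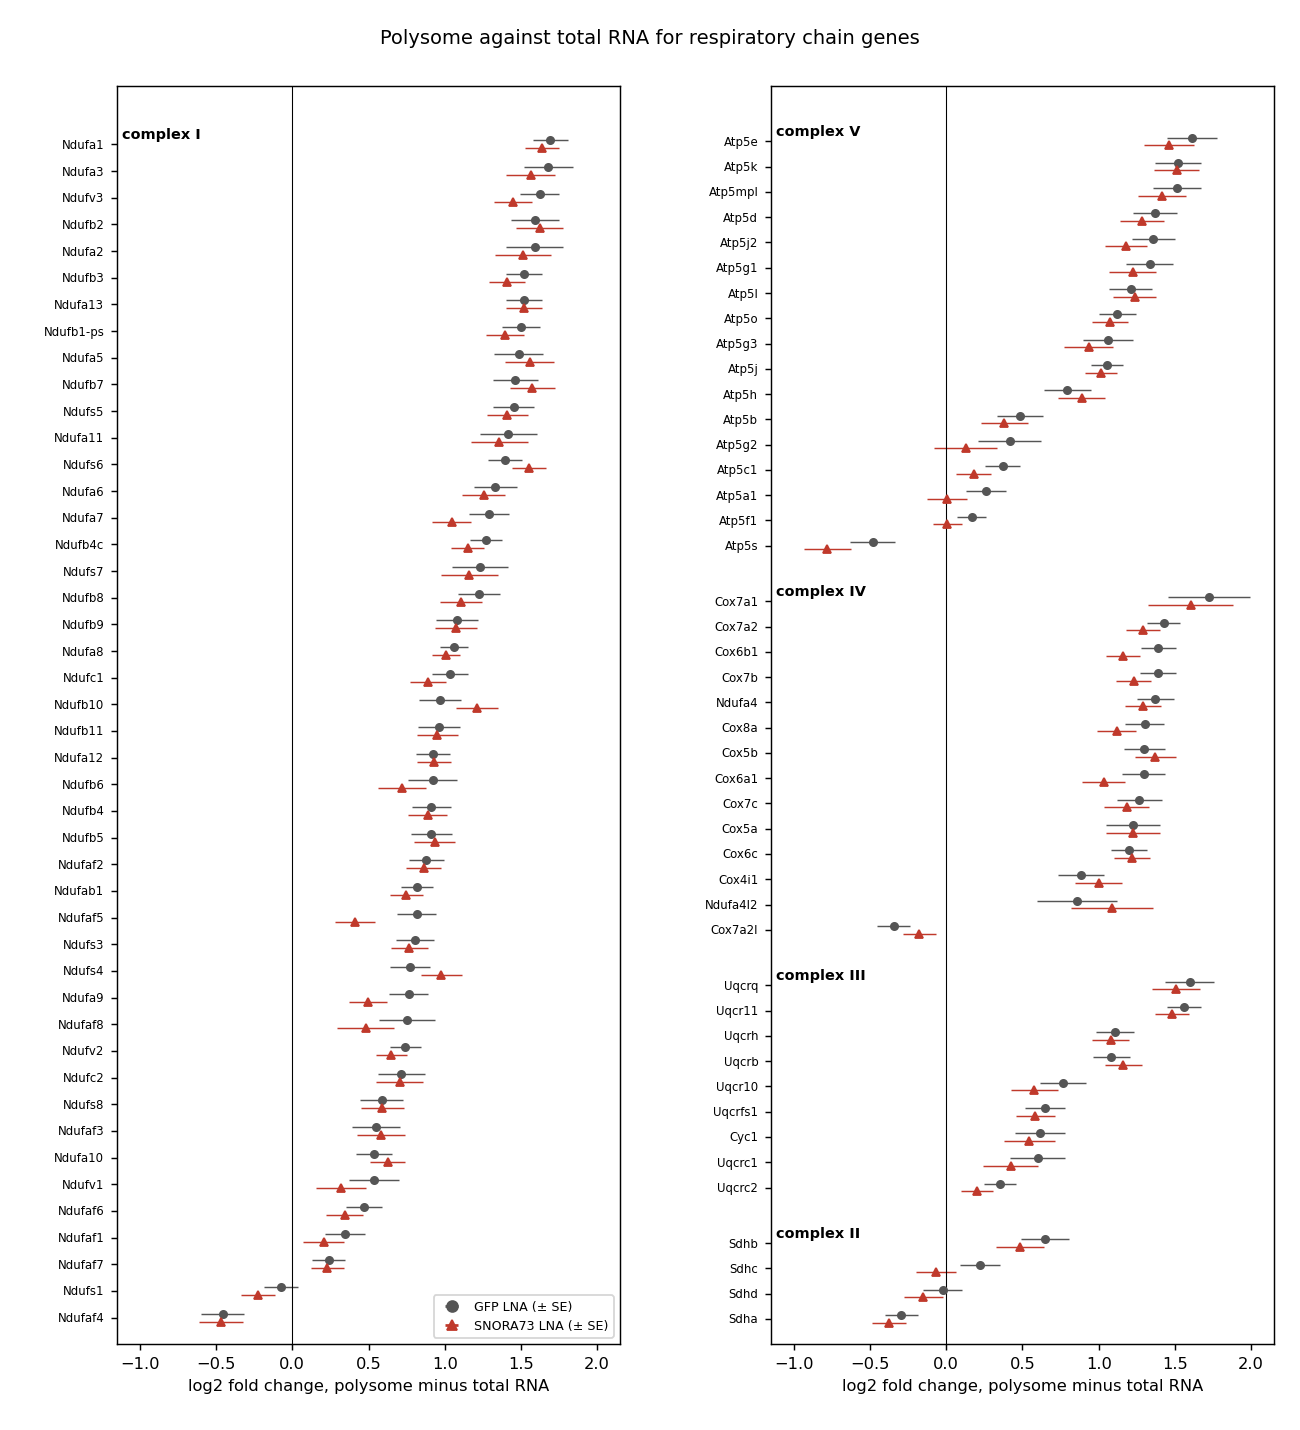
Log2 fold change of polysome over total RNA (x axis, edgeR estimate ± SE) for 89 of the 90 members, by complex and sorted within it; circles are the GFP LNA group and triangles the SNORA73 LNA group, 5 mice each. Ndufa1 and Ndufa3 lie near 1.7 in the GFP LNA group, whereas Sdha, Ndufaf4 and Atp5s lie below 0 in both groups.

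Among accessory subunits of complex I, Ndufa1 (ENSMUSG00000016427, chrX:37187588-37191238) encodes a small membrane-anchored protein needed to build the membrane arm. Its total RNA level was 110, 103, 101.9, 98.2 and 103 CPM in GFP LNA mice 1, 2, 3, 8 and 9, and 115, 111, 104, 120 and 106 CPM in SNORA73 LNA mice 4, 6, 10, 11 and 12. Its polysome level was 365, 321, 297, 298 and 389 CPM in the GFP LNA mice and 332, 310, 286, 424 and 376 CPM in the SNORA73 LNA mice, in the same orders of mice, which are kept below. Total and polysome libraries did not overlap in either group. The log2 fold change was 1.69 ± 0.11 (SE) in the GFP LNA group (FDR = 4.14e-09) and 1.64 ± 0.11 in the SNORA73 LNA group (FDR = 1.39e-08).

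Ndufa3, another small accessory subunit of complex I, had 120, 112, 115, 92.5 and 110 CPM in total RNA of the GFP LNA mice and 361, 351, 328, 316 and 401 CPM in their polysomes. The SNORA73 LNA mice had 120, 120, 76.2, 131 and 109 CPM in total RNA and 335, 285, 232, 464 and 332 CPM in polysomes, with mouse 10 lowest in both. The log2 fold changes were 1.68 ± 0.16 and 1.56 ± 0.16. Ndufb2 and Ndufv3, which are also accessory, reached 1.59 and 1.62 in the GFP LNA group and 1.62 and 1.45 in the SNORA73 LNA group.

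The 7 nuclear core subunits of complex I include those that hold the flavin and the iron-sulfur clusters that carry electrons towards ubiquinone. Of the 7 genes, 6 were called higher in the GFP LNA group and 5 in the SNORA73 LNA group. Estimates ranged from -0.08 (Ndufs1) to 1.23 (Ndufs7) in the GFP LNA group. Ndufs1 (ENSMUSG00000025968, chr1:63143592-63176822) encodes the largest subunit of the complex. It had 64.6, 72.5, 69.2, 79.0 and 74.4 CPM in total RNA of the GFP LNA mice and 61.3, 68.2, 61.4, 74.1 and 76.2 CPM in their polysomes. The SNORA73 LNA mice had 66.1, 69.5, 61.8, 66.2 and 71.7 CPM in total RNA and 57.5, 71.1, 43.9, 54.1 and 60.3 CPM in polysomes. The libraries overlapped in both groups, with log2 fold changes of -0.08 ± 0.11 (FDR = 0.606) and -0.23 ± 0.11 (FDR = 0.118). With the mouse as replicate block, the second value was -0.24 with an FDR of 0.0187.

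Ndufv1, the flavin-binding subunit that takes electrons from NADH, was called in the GFP LNA group only. Its total RNA level was 82.9, 79.7, 88.8, 62.8 and 81.2 CPM in the GFP LNA mice and 88.9, 130, 70.9, 82.1 and 107 CPM in the SNORA73 LNA mice. Its polysome level was 104, 92.8, 114, 117 and 145 CPM in the GFP LNA mice and 108, 92.4, 114, 130 and 154 CPM in the SNORA73 LNA mice. The log2 fold change of polysome over total RNA was 0.54 ± 0.16 (FDR = 0.0120) in the GFP LNA group and 0.32 ± 0.16 (FDR = 0.130) in the SNORA73 LNA group. The difference between the groups was -0.21 ± 0.23 and was not called (FDR = 0.9999). Without mice 9 and 10 the GFP LNA value was 0.42 with an FDR of 0.0585.

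Of the 8 assembly factors of complex I, proteins that help to build the complex and leave it, 6 were higher in the GFP LNA group and 5 in the SNORA73 LNA group. Without mice 9 and 10, Ndufaf1 (FDR = 0.0696) and Ndufaf3 (FDR = 0.0545) were not called in the GFP LNA group, nor Ndufaf6 (FDR = 0.0526) and Ndufaf8 (FDR = 0.0804) in the SNORA73 LNA group. Ndufaf4 (ENSMUSG00000028261, chr4:24898083-24905001) was lower in polysomes in both. It had 30.6, 31.9, 31.8, 36.2 and 39.9 CPM in total RNA of the GFP LNA mice and 24.0, 20.7, 25.5, 25.9 and 27.9 CPM in their polysomes, with no overlap. Levels in the SNORA73 LNA mice were 37.8, 37.6, 38.2, 35.1 and 34.7 CPM in total RNA and 29.6, 37.5, 25, 17.9 and 22.6 CPM in polysomes, and the polysome library of mouse 6 overlapped the total libraries. The log2 fold changes were -0.46 ± 0.14 (FDR = 0.0138) and -0.47 ± 0.14 (FDR = 0.0141), and the ratio was below 1 in all 10 mice. The largest distance between the groups was that of Ndufaf5, another assembly factor, at 0.82 ± 0.13 in the GFP LNA group and 0.41 ± 0.13 in the SNORA73 LNA group, both called higher.

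The 4 genes of complex II included members on both sides of 0. Sdha (ENSMUSG00000021577, chr13:74322255-74350240), the flavoprotein that oxidizes succinate, had 280, 287, 292, 269 and 269 CPM in total RNA of the GFP LNA mice and 212, 229, 221, 241 and 236 CPM in their polysomes. The SNORA73 LNA mice had 277, 312, 197, 261 and 277 CPM in total RNA and 199, 224, 168, 223 and 207 CPM in polysomes. Every mouse had less Sdha in polysomes, and the log2 fold changes were -0.29 ± 0.11 (FDR = 0.0354) and -0.38 ± 0.11 (FDR = 0.0100). Mouse 10 held the lowest value in both RNAs, and without mice 9 and 10 Sdha kept its call in both groups. Sdhb, the iron-sulfur subunit, was called higher in both groups, by 0.65 ± 0.16 and 0.48 ± 0.16.

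Sdhc and Sdhd anchor the complex in the membrane and form the ubiquinone site. Sdhc had 171, 180, 180, 156 and 203 CPM in total RNA of the GFP LNA mice and 177, 210, 199, 202 and 252 CPM in their polysomes. The SNORA73 LNA mice had 181, 195, 118, 192 and 167 CPM in total RNA and 175, 161, 134, 162 and 181 CPM in polysomes. The libraries overlapped in both groups, with log2 fold changes of 0.22 ± 0.13 (FDR = 0.183) and -0.07 ± 0.13 (FDR = 0.719), and the first was called with the mouse as replicate block (FDR = 0.0336). Sdhd had 224 to 283 CPM in total RNA and 225 to 261 CPM in polysomes of the GFP LNA mice, and 153 to 247 and 157 to 232 CPM in the SNORA73 LNA mice. It was called in neither group.

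All 9 genes of complex III were called higher in the GFP LNA group and 7 in the SNORA73 LNA group, where the exceptions were Uqcrc1 and Uqcrc2, the large core proteins. With the mouse as replicate block both were called there, at 0.44 and 0.21. Uqcrq (ENSMUSG00000044894, chr11:53427922-53430831), a small subunit next to cytochrome b, stood highest in the complex. It had 277, 257, 242, 189 and 245 CPM in total RNA of the GFP LNA mice and 719, 751, 677, 675 and 840 CPM in their polysomes. Levels in the SNORA73 LNA mice were 267, 301, 190, 332 and 253 CPM in total RNA and 751, 598, 624, 1014 and 834 CPM in polysomes. Polysome and total libraries did not overlap, with log2 fold changes of 1.60 ± 0.16 and 1.51 ± 0.16. Cyc1, which holds cytochrome c1, and Uqcrfs1, the Rieske iron-sulfur protein, rose less, by 0.61 and 0.65 in the GFP LNA group.

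In complex IV 13 of 14 genes were higher in each group. Cox4i1, the ubiquitous isoform of the regulatory subunit 4, had 426, 408, 419, 367 and 420 CPM in total RNA of the GFP LNA mice and 770, 634, 645, 790 and 924 CPM in their polysomes. The SNORA73 LNA mice had 436, 501, 315, 449 and 437 CPM in total RNA and 675, 681, 774, 1103 and 1039 CPM in polysomes, and its log2 fold changes were 0.88 ± 0.15 and 1.0 ± 0.15. Ndufa4, once placed in complex I and now known as a subunit of complex IV, had 528 to 632 CPM in total RNA and 1340 to 1690 CPM in polysomes of the GFP LNA mice. Its log2 fold changes were 1.37 ± 0.12 and 1.29 ± 0.12.

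Cox7a1, the scarce muscle isoform, had the highest estimate of all members in the GFP LNA group. It had 1.71, 2.53, 1.86, 1.93 and 2.07 CPM in total RNA of the GFP LNA mice and 5.90, 7.70, 5.92, 5.83 and 8.07 CPM in their polysomes. The SNORA73 LNA mice had 1.34, 1.78, 0.557, 1.38 and 1.62 CPM in total RNA and 2.49, 6.10, 2.32, 4.47 and 5.23 CPM in polysomes. Every polysome value was above every total value of its group, and the log2 fold changes were 1.72 ± 0.27 and 1.60 ± 0.28, with SEs above those of abundant members. The liver isoform Cox7a2 rose by 1.43 ± 0.11 and 1.29 ± 0.11. Cox7a2l had estimates below 0, of -0.34 ± 0.11 (FDR = 0.0140) in the GFP LNA group and -0.18 ± 0.11 (FDR = 0.212) in the SNORA73 LNA group.

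In ATP synthase the catalytic F1 head is made of subunits alpha, beta, gamma, delta and epsilon. Among its large subunits, the log2 fold changes of Atp5a1 (alpha) were 0.26 ± 0.13 (FDR = 0.115) and 0.01 ± 0.13, and those of Atp5b (beta), which holds the catalytic sites, 0.48 ± 0.15 (FDR = 0.0151) and 0.38 ± 0.15 (FDR = 0.0563). Atp5b had 752, 747, 701, 637 and 585 CPM in total RNA of the GFP LNA mice and 901, 1016, 945, 1040 and 884 CPM in their polysomes. Levels in the SNORA73 LNA mice were 605, 957, 579, 531 and 815 CPM in total RNA and 740, 928, 868, 803 and 1202 CPM in polysomes, where the libraries overlapped. Atp5d (delta) and Atp5e (epsilon), the small subunits, rose by 1.37 and 1.61 in the GFP LNA group. With the mouse as replicate block, Atp5a1 was called in the GFP LNA group (FDR = 0.0123) and Atp5b in the SNORA73 LNA group (FDR = 0.00285). Without mice 9 and 10, Atp5b was not called in the GFP LNA group (0.44, FDR = 0.0533).

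The proton-carrying subunit c is encoded by Atp5g1, Atp5g2 and Atp5g3, which give the same mature protein from different precursors. Atp5g1 had 73.5 to 93.0 CPM in total RNA and 182 to 244 CPM in polysomes of the GFP LNA mice, a log2 fold change of 1.33 ± 0.15, and 1.22 ± 0.15 in the SNORA73 LNA group. Atp5g3 had 394 to 526 CPM in total RNA and 822 to 1226 CPM in polysomes of the GFP LNA mice, and rose by 1.06 ± 0.16 and 0.93 ± 0.16. Atp5g2, the least abundant in counts, had 11.9, 10.4, 11.4, 18.9 and 14 CPM in total RNA and 20.7, 17.7, 14.1, 17.9 and 18.4 CPM in polysomes of the GFP LNA mice. The Atp5g2 libraries overlapped, and its log2 fold changes of 0.42 ± 0.20 (FDR = 0.108) and 0.13 ± 0.21 (FDR = 0.669) were not called. The first was called with the mouse as replicate block (FDR = 0.0320). Atp5s had the lowest values of all members, -0.48 ± 0.15 and -0.78 ± 0.15, at a mean level under 10 CPM.

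**Figure D3:**
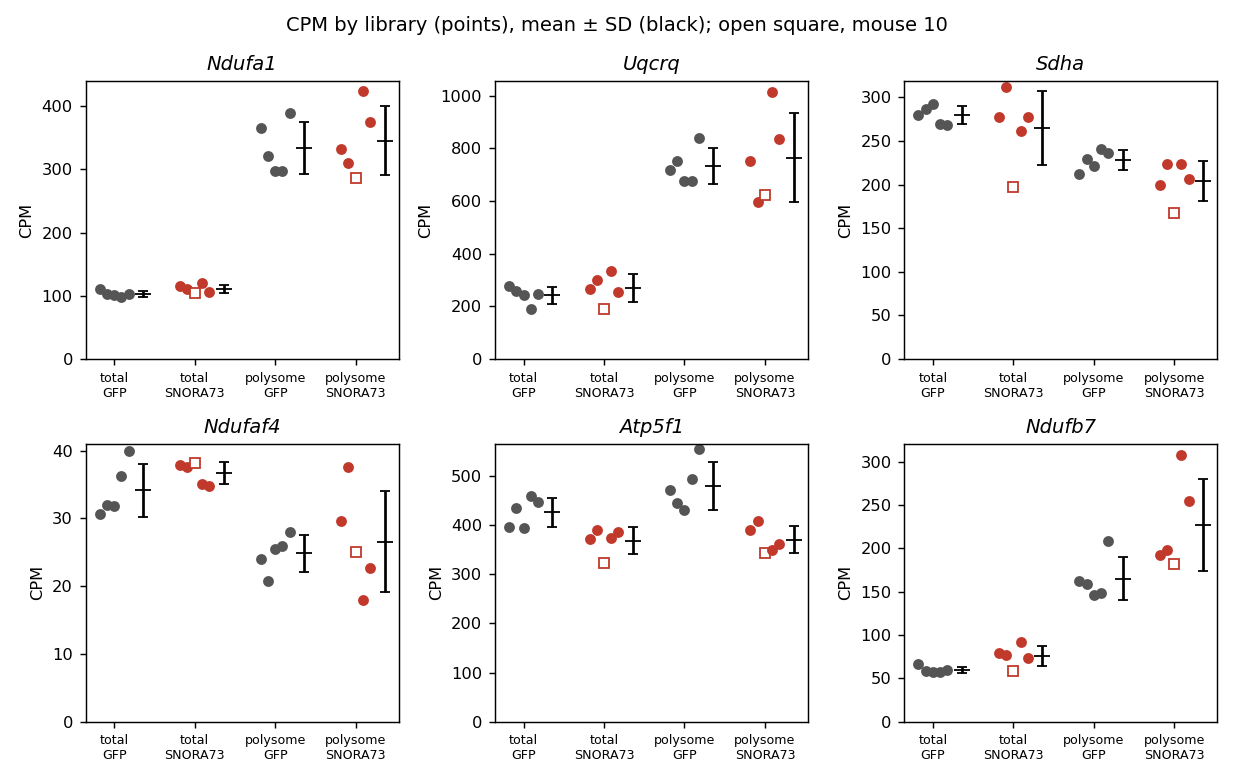
CPM (y axis, TMM scale over 20 libraries, starting at 0) of 6 members in each library, by RNA and LNA group; black marks are means ± SD of 5 mice and the open square is mouse 10. Ndufa1, Uqcrq and Ndufb7 stand far higher in polysome than in total RNA, Atp5f1 about level, and Sdha and Ndufaf4 lower.

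The subunits encoded by mitochondrial DNA went the opposite way, and they are translated by ribosomes inside the organelle. Of these 13 genes, 12 were lower in polysome RNA in each group, with medians of -3.28 and -3.10 on the log2 scale. mt-Co1, the catalytic subunit of complex IV, fell by 1.40 in the GFP LNA group, and mt-Atp6, a subunit of the ATP synthase proton channel, fell by 3.54. The exception was mt-Nd6, at 0.24 and 0.07, whose reads cannot be told apart from those of the overlapping strand where counting ignores strand. Mitochondrially encoded genes took 11.2 to 15.4% of total RNA counts and 1.76 to 3.89% of polysome counts. With these genes left out before normalization, 78 members were higher and 4 lower in the GFP LNA group, and 72 and 3 in the SNORA73 LNA group.

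Some other gene families were also called higher in polysomes. Over all genes, 21.8% were called higher and 21.0% lower in the GFP LNA group. Mitochondrial ribosomal proteins (symbols beginning with Mrpl or Mrps and a digit), which build the organelle's own ribosome, were higher for 68 of 78 genes tested in the GFP LNA group, with a median of 0.84. Proteasome subunits (Psma to Psmd and a digit) were higher for 31 of 38, with a median of 0.57. Of 43 assembly factors outside the symbol rule 23 were higher and 6 lower in the GFP LNA group, and of 14 genes of cytochrome c and ubiquinone synthesis 6 were higher and 1 lower. Of 15 nuclear regulators of respiratory genes 2 were higher and 4 lower, and of 10 identifiers of other enzymes that feed electrons to the chain 2 were higher and 2 lower. In the SNORA73 LNA group the counts of genes higher and lower in these last 4 lists were 22 and 6, 4 and 1, 3 and 4, and 2 and 2. Mitochondrial ribosomal proteins were higher there for 63 of 78 genes and proteasome subunits for 30 of 38. Over all genes, 19.7% were called higher and 18.2% lower in that group.

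The question of whether the SNORA73 LNA altered respiratory chain mRNAs was addressed in total RNA first. No member was called by edgeR at an FDR under 0.05, where 4 of 13195 genes were called higher (0.0303%) and 0 lower (0%), nor by limma-voom or DESeq2. At an unadjusted p under 0.05 there were 3 members, a share of 3.33% beside 8.65% of all genes. The median log2 fold change (SNORA73 LNA minus GFP LNA) of the members was 0.03, beside 0.01 over all genes, and 55 of the 90 were above 0 (61.1%, background 51.7%). The median was 0.09 without mouse 10 and 0.10 without mice 9 and 10, and its sign turned without mouse 6 (-0.01) or mouse 8 (-0.0033). It fell to 0.01 without mouse 9 and 0.0026 without mouse 11. Estimates ran from -0.58 (Cox7a1) to 0.35 (Ndufb7). The 95% interval lay within -0.5 and 0.5 for 83 members (92.2%), where this held for 53.3% of all genes, and within -1 and 1 for 89 members, where it held for 89.0%. By complex the medians were 0.06 (I), -0.07 (II), 0.03 (III), -0.01 (IV) and 0.00 (V).

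In polysome RNA no member was called by edgeR or limma-voom either, where 2 of 13060 genes were called higher (0.0153%) and 0 lower (0%), and DESeq2 called 1 member, Atp5f1, lower. At an unadjusted p under 0.05 there were 9 members (10%), beside 13.4% of all genes. The median log2 fold change was -0.07, beside -0.01 over all genes, and 32 members were above 0 (35.6%, background 48.6%). The 95% interval lay within -0.5 and 0.5 for 65 members, where this held for 26.1% of all genes, and within -1 and 1 for 88, where 74.1% of all genes passed. By complex the medians were -0.01 (I), -0.22 (II), -0.10 (III), -0.11 (IV) and -0.08 (V). The direction of the median rested on mouse 10: without it the polysome median was 0.01, and without mice 9 and 10 it was 0.05.

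**Figure D4:**
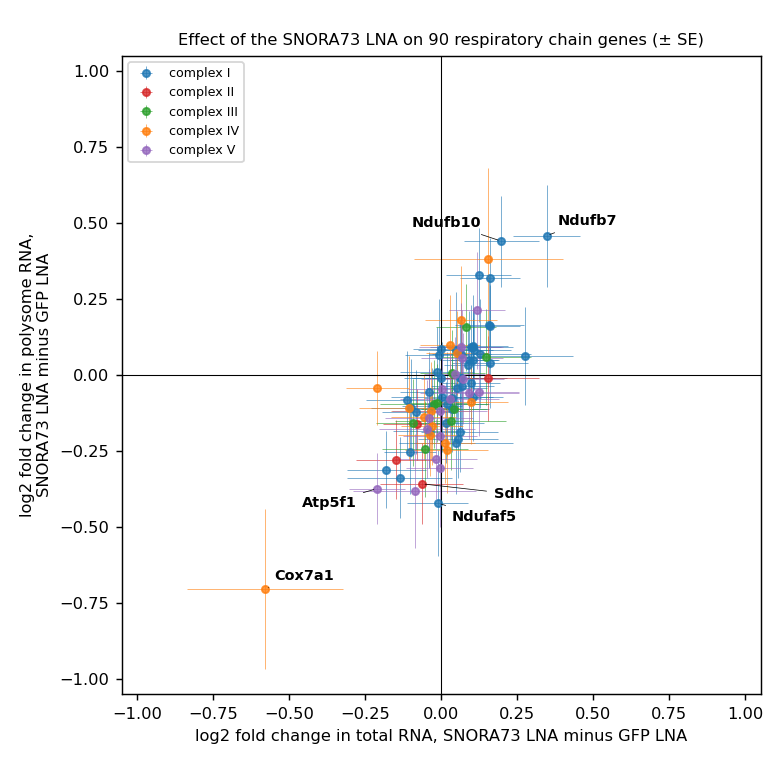
Log2 fold change of the SNORA73 LNA over the GFP LNA in total RNA (x axis) and polysome RNA (y axis) for the 90 members, with SE as bars and colours by complex, 5 mice per group. Most members lie within 0.5 of 0 on both axes, and Cox7a1, a scarce isoform, lies furthest out at -0.58 and -0.70.

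In total RNA the highest estimates were those of 4 complex I genes, and Ndufb7 was highest in both RNAs. Ndufv1 came next in total RNA, at 0.28, and was not called. Its mean total RNA level was 79.1 ± 9.74 CPM in the GFP LNA group and 95.8 ± 23.2 CPM in the SNORA73 LNA group. Ndufb7 (ENSMUSG00000033938, chr8:83566758-83571623), a subunit facing the intermembrane space, had 66.1, 58.7, 57.9, 57.1 and 59.9 CPM in total RNA of the GFP LNA mice and 79.5, 77.4, 58.9, 91.5 and 74.0 CPM in that of the SNORA73 LNA mice. Its polysome levels were 163, 159, 147, 149 and 208 CPM in the GFP LNA mice and 192, 198, 182, 308 and 255 CPM in the SNORA73 LNA mice. All SNORA73 LNA mice except mouse 10 were above the GFP LNA mice in total RNA, and in polysomes mouse 9 of the GFP LNA group overlapped the others. The log2 fold changes of 0.35 ± 0.11 (FDR = 0.378) and 0.46 ± 0.17 (FDR = 0.275) were not called.

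Ndufb10, another accessory subunit of the membrane arm, had 127, 130, 130, 119 and 126 CPM in total RNA of the GFP LNA mice and 143, 161, 101.9, 166 and 153 CPM in that of the SNORA73 LNA mice, where mouse 10 was the lowest of all. In polysomes it had 242, 261, 243, 223 and 270 CPM and 319, 324, 242, 409 and 389 CPM, with mouse 10 again inside the control range. The log2 fold changes of Ndufb10 were 0.20 ± 0.12 and 0.44 ± 0.15, and neither was called (FDR = 0.715 and 0.246). Ndufs6, a zinc-binding accessory subunit, had 115 to 151 CPM in total RNA of the GFP LNA mice and 136 to 156 CPM in the SNORA73 LNA mice, and 301 to 367 against 347 to 467 CPM in polysomes, with log2 fold changes of 0.16 ± 0.10 and 0.32 ± 0.13 that were not called. In polysomes Ndufa4l2 and Ndufs4, an accessory subunit of complex I, came next after Ndufb10, at 0.38 ± 0.30 (FDR = 0.623) and 0.33 ± 0.15 (FDR = 0.373).

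Of the members with the lowest estimates, Atp5f1 (ENSMUSG00000000563, chr3:105942698-105959263), which encodes subunit b of the peripheral stalk, was the only one whose groups did not overlap in either RNA. In total RNA it had 396, 435, 395, 460 and 446 CPM in the GFP LNA mice and 371, 391, 323, 374 and 386 CPM in the SNORA73 LNA mice. In polysomes it had 473, 445, 430, 494 and 554 CPM in the GFP LNA mice and 390, 408, 344, 350 and 362 CPM in the SNORA73 LNA mice. The log2 fold changes were -0.21 ± 0.09 (FDR = 0.542) and -0.37 ± 0.12 (FDR = 0.218), and the second was past the threshold under 2 of 20 settings, DESeq2 (FDR = 0.0407) and a single edgeR fit of all 20 libraries (FDR = 0.0448). Other members stood as low as Atp5f1 in 1 RNA. Cox7a2l was at -0.21 in total RNA, with overlap, and at -0.04 in polysome RNA. Ndufaf5 was at -0.42 in polysome RNA. Members without overlap between the LNA groups were counted on CPM scaled by TMM within each RNA. Lower values without overlap were found for 1 member in total RNA, where 0.705% of all genes had them, and for 2 in polysome RNA (Atp5f1 and Ndufaf5), where 1.09% did. On the scale over 20 libraries, Ndufaf6 did not overlap in polysome RNA either. It had 13.2 to 17.2 CPM in the GFP LNA mice and 11.1 to 13.0 CPM in the SNORA73 LNA mice. No member had higher values without overlap in either RNA, where 1.10% and 2.11% of all genes did.

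Cox7a1 had the lowest estimate in both RNAs, from the values given above, in which mouse 10 was lowest in each. Its log2 fold changes were -0.58 ± 0.26 (FDR = 0.547) and -0.70 ± 0.26 (FDR = 0.283), with 95% intervals from -1.14 to -0.02 and from -1.27 to -0.14. The log2 fold change of Sdhc was -0.36 ± 0.13 (FDR = 0.277) in polysomes, where the GFP LNA mice ranged from 177 to 252 CPM and the SNORA73 LNA mice from 134 to 181 CPM. Summed over complex II, polysome RNA held 896 ± 48.1 CPM in the GFP LNA group and 784 ± 92.9 CPM in the SNORA73 LNA group (n = 5 each). The groups overlapped, with 829 to 955 CPM in the GFP LNA mice and 642 to 893 CPM in the SNORA73 LNA mice, where mouse 10 was lowest.

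The last comparison asked whether the passage of these mRNAs into polysomes differed between the LNA groups, tested as the LNA-by-fraction term of the fit to the 20 libraries. No member was called, where 1 of 13795 genes was called lower (0.00725%) and 0 higher (0%), and no member was called under limma-voom or DESeq2 or with the mouse as replicate block. At an unadjusted p under 0.05 there was 1 member (1.11%), beside 2.91% of all genes. The median was -0.08, beside -0.01 over all genes, and 20 members were above 0 (22.2%, background 47.6%). Of the 78 mitochondrial ribosomal protein genes, 20 were above 0 here (median -0.11), 30 in polysome RNA and 51 in total RNA. Of the 38 proteasome subunit genes, 17 were above 0 here (median -0.02), 19 in polysome RNA and 25 in total RNA. Without mouse 6 the median was -0.02, and without mice 9 and 10 it was -0.04. For 89 members the 95% interval lay within -1 and 1, where this held for 67.1% of all genes, and for 44 it lay within -0.5 and 0.5, where it held for 18.1%.

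The lowest interaction estimate was that of Ndufaf5 (ENSMUSG00000027384, chr2:140170584-140218965), an enzyme that modifies a core subunit during assembly of complex I. Its total RNA level was 5.58, 5.20, 5.57, 5.18 and 5.55 CPM in the GFP LNA mice and 4.67, 5.6, 5.26, 5.37 and 5.92 CPM in the SNORA73 LNA mice, and the groups overlapped. Its polysome level was 9.39, 10.7, 9.47, 8.70 and 9.44 CPM in the GFP LNA mice and 8.17, 8.51, 6.16, 5.06 and 7.88 CPM in the SNORA73 LNA mice. All SNORA73 LNA mice were below all GFP LNA mice in polysomes. The interaction was -0.41 ± 0.18 with an FDR of 0.9999, and over all settings the FDR ran from 0.564 to 1. The largest positive estimate was that of Ndufb10, 0.24 ± 0.19.

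Other genes of the chain followed the members in the lack of calls. None of the mitochondrially encoded subunits, assembly factors, carriers, regulators or other electron-feeding enzymes was called in total RNA, polysome RNA or the interaction. The paper, with limma-voom on 4 mice per group, reports mt-ND6 as upregulated in total RNA. It calls that change of uncertain significance, since polysome RNA did not show it. The main test here used other mice and another method. The mitochondrially encoded subunits had a median log2 fold change of 0.13 in total RNA and 0.53 in polysome RNA. Of these 13 genes, 12 were above 0 in each RNA, beside 51.7% and 48.6% of all genes. Their summed polysome CPM was 32857 and 34982 in SNORA73 LNA mice 4 and 6. Mice 10, 11 and 12 had 23158, 25406 and 17885, inside the GFP LNA range of 17320 to 27791. Of the marker lists, Stab2, a scavenger receptor of sinusoidal endothelium, was called higher in total RNA with the SNORA73 LNA, by 1.06 on the log2 scale, and it was the only 1 of that list's 6 genes to be called. Summed red cell markers ranged from 618 to 1035 CPM in polysome RNA of the GFP LNA group and from 241 to 913 CPM in that of the SNORA73 LNA group, and their part in the results was not tested.

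The coefficient of variation of a member's CPM between the 5 mice had a median of 7.78% in total RNA and 10.5% in polysome RNA of the GFP LNA group, and of 16% and 17.5% in the SNORA73 LNA group. In the SNORA73 LNA group mouse 6 held the highest total RNA value of the 10 mice for 39 members, against 11.4% of all genes, and mouse 11 for 26, against 15.4% of all genes.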

How the data were processed

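Libraries were polyadenylated RNA, sequenced as reverse-stranded paired reads of 100 bp. The authors filtered reads with fastp (Phred at least 15), removed rRNA reads with bowtie, and ran kallisto 0.46.2 on Ensembl 102 with tximport. What was deposited are estimated counts, here rounded to integers. kallisto's strand option is not given in the sources used here. Symbols were matched for 51903 of 53028 identifiers, and 0 columns were without a sample. The study fitted limma-voom, and edgeR 4.0.16 (R 4.3.3) replaced it as the test fitting counts, with limma 3.58.1 and DESeq2 1.42.0 as alternatives. Genes over 0.5 CPM in at least 4 libraries were tested with TMM and Benjamini-Hochberg adjustment over all genes, and intervals are 95%. Total and polysome libraries of a number come from the same mouse by the labels, and their deviations from group means correlated at 0.146 to 0.694 over all genes and at -0.201 (mouse 6) to 0.664 over the members. Compared only with the polysome libraries of its own LNA group, each mouse matched its own number best over all genes except mouse 6, which matched mouse 12. The main fits have no block. No 2 libraries were identical (highest correlation 0.991). The procedure was tested on simulated independent libraries in which some genes were changed by 1 on the log2 scale. Smaller changes, pairing by mouse and a shift shared by many genes of 1 mouse were not simulated. Named members were the 4 highest and 4 lowest per comparison, core catalytic subunits, isoform pairs, subunit c genes and any member called with the LNA. Uqcrq, Atp5e, Atp5k and the other promoter genes were named after their values were seen. A part of the rule on levels per kilobase could not be applied. The values of 1 member are not reported here by name. Members, lists and tests were chosen with earlier results of these data known.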

Additional observations from a re-analysis of the deposited data

Results flagged for a closer look

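In 112 groups of 5 libraries (22 members and the summed levels of all members and of each complex, in 4 groups), the gap of the highest or lowest library to its neighbour was compared with the range of the group. In 3 groups it exceeded Dixon's critical value for 5 samples (0.71), and chance gives about 1 in 20 groups. The Ndufb7 level of 208 CPM in polysome RNA of GFP LNA mouse 9 stood above the other control mice. In total RNA of SNORA73 LNA mouse 10, Sdhd at 153 CPM and Atp5f1 at 323 CPM stood below the other mice of the group. No interaction of a named member was called.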

How the results depend on the processing

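Library totals without TMM moved the median log2 fold change of the members in total RNA to -0.11 (all genes -0.14) and in polysome RNA to -0.22 (all genes -0.17), so members followed the shift of all genes. The count of members lower in polysome RNA with the LNA was 1 under DESeq2 and 1 in a single fit of 20 libraries. The count lower in polysome against total RNA was 2 with no filter beyond 1 count in the GFP LNA group, and 1 from the 10 libraries of the SNORA73 LNA group alone. Leaving out 1 mouse at a time gave GFP LNA medians from 0.98 to 1.06, with 74 to 79 members higher and 2 to 4 lower, the 2 without GFP LNA mouse 8. In the SNORA73 LNA group the medians ran from 0.95 to 1.08, with 69 to 76 higher and 2 to 4 lower. The medians ran from -0.01 to 0.09 in total RNA, from -0.12 to 0.01 in polysome RNA and from -0.12 to -0.02 for the interaction, with 0 members called in each.

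With the mouse as replicate block, 84 members were higher and 4 lower in the GFP LNA group, 77 and 4 in the SNORA73 LNA group, and 0 in the interaction. Beside the members named in the report, the block added Atp5f1 (0.17, FDR = 0.0468) and Ndufaf7 (0.24, FDR = 0.0420) in the GFP LNA group and Atp5c1 (0.19, FDR = 0.0344) in the SNORA73 LNA group. Without mice 9 and 10, 75 members were higher and 4 lower in the GFP LNA group, and 69 and 3 in the SNORA73 LNA group. Cyc1 was not called there in the SNORA73 LNA group (FDR = 0.0650).

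Of 97 values of single members, 3 changed sign under some setting, and none of the 3 was called in the main test. Sdhd in the GFP LNA group was 0.021 without TMM. Atp5g2 in the SNORA73 LNA group was -0.11 without mouse 6, and up to 0.249 with another mouse left out. Atp5a1 in the SNORA73 LNA group was -0.0029 under DESeq2, -0.0026 with DESeq2 size factors, -0.017 with no filter, -0.062 with CPM above 1 in every library, -0.0070 without mitochondrially encoded genes, -0.044 with 8 mice, -0.040 with 8 mice and the replicate block (chosen after seeing the data), and from -0.044 to -0.0085 without mouse 2 (-0.0086), 3, 10 or 12 (-0.0395), and up to 0.0952 with another mouse left out. The causes of these changes were not tested.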
